A study of Rattus norvegicus with 2 samples.

Results

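Fads1, Fads2 and Elovl5 encode the delta-5 desaturase, the delta-6 desaturase and the elongase that make long polyunsaturated fatty acids in liver. They were followed here on both arrays of a rat liver study of dietary fat. Every probe set (the group of oligonucleotides that reports one transcript) whose single gene symbol in the platform annotation was one of these names was taken, which gave 4 probe sets for 3 of the 10411 genes with a single symbol. Liver total RNA of SD rats was hybridised to 2 arrays, 1 for a low-fat and 1 for a high-fat diet. Both diets were based on AIN93G, a purified rodent diet. Per the labels the rats were 4 weeks old and were fed for 9 weeks, so 4 weeks cannot be the age after that feeding. The labels give no fat source, fat content, sex or count of pooled animals. With 1 array per diet there is no replicate spread, so no value below carries a test, and diet cannot be told apart from any other difference between the 2 RNA samples. "Higher" and "lower" mean only the order of these arrays. In whole liver, a change in the number of cells of a type and a change in RNA per cell cannot be told apart.

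The dietary essential fatty acids linoleic and alpha-linolenic acid are converted to arachidonic, eicosapentaenoic and docosahexaenoic acid by alternating desaturation and elongation in the endoplasmic reticulum. Fads2 catalyses the first, commonly rate-limiting, desaturation, Elovl5 adds a two-carbon unit to the product, and Fads1 then inserts the delta-5 double bond. The liver is a main site of this pathway, and its genes are textbook targets of the transcription factors SREBP-1c, encoded by Srebf1, and PPAR-alpha, encoded by Ppara, with polyunsaturated fatty acids acting back to lower SREBP-1c activity.

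The 3 genes did not differ in the same direction. Both desaturases were lower on the high-fat array, and Elovl5 was higher on both of its probe sets. None of the 3 reached a 2-fold difference, which 1.71% of the 6012 measured genes did (0.848% higher and 0.865% lower, 51 and 52 genes). Without centring, 33 genes were 2-fold higher and 78 lower. A probe set counts as measured when its mean log2 signal over both arrays reaches the mean of the array medians, which served as floors (15.7 for low-fat, 14.0 for high-fat). All 4 probe sets were measured, each at least 10.7 times the floor of its array. Log2 ratios are high-fat over low-fat, after subtraction of the median over measured probe sets (-0.117), unless stated otherwise.

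Fads2, the delta-6 desaturase (probe set 1368453_at), had a low-fat signal of 671.3 and a high-fat signal of 465.1. It was the lower of the desaturases in ratio, with a log2 ratio of -0.41, or 1.33-fold lower after centring and 1.44-fold before it. These signals exceeded 97.1% and 96.0% of the probe sets on the respective arrays. Of all measured genes, 640 (10.6%) had a ratio as low or lower. Among the 786 probe sets in the brightest of 10 equal groups by mean signal, 14 (1.78%) did. The robust SD of the ratio in that group, a measure of spread across probe sets and not across animals, was 0.17.

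Fads1, the delta-5 desaturase (1367857_at), had signals of 482.4 and 387.4 on the low-fat and high-fat arrays. Its log2 ratio of -0.20 was the smallest of the 4 in size, 1.15-fold lower after centring and 1.25-fold before it. In the same brightest group 69 probe sets (8.78%) were as low or lower, and 25.2% of all measured genes were. The desaturase log2 ratios differed from each other by 0.21, with Fads2 the lower, and each gene had a single probe set, so neither ratio has a second measurement on these arrays.

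Elovl5, the elongase that acts on products of both desaturases, was measured by 2 probe sets. The brighter probe set, 1388348_at, went from 922.8 to 1208.3 between the low-fat and high-fat arrays, a log2 ratio of 0.51 (1.42-fold higher, and 1.31-fold before centring). The second, 1387630_at, went from 167.5 to 241.6, a log2 ratio of 0.65 (1.56-fold higher, and 1.44-fold before centring). Both were higher on the high-fat array. Among probe sets of like signal, 23 of 786 (2.93%) had a ratio as high as the brighter one and 25 of 786 (3.18%) a ratio as high as the dimmer one, where the robust SD was 0.23. Of measured genes, 5.82% had a ratio at or above that of the brighter Elovl5 probe set.

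**Figure D1:**
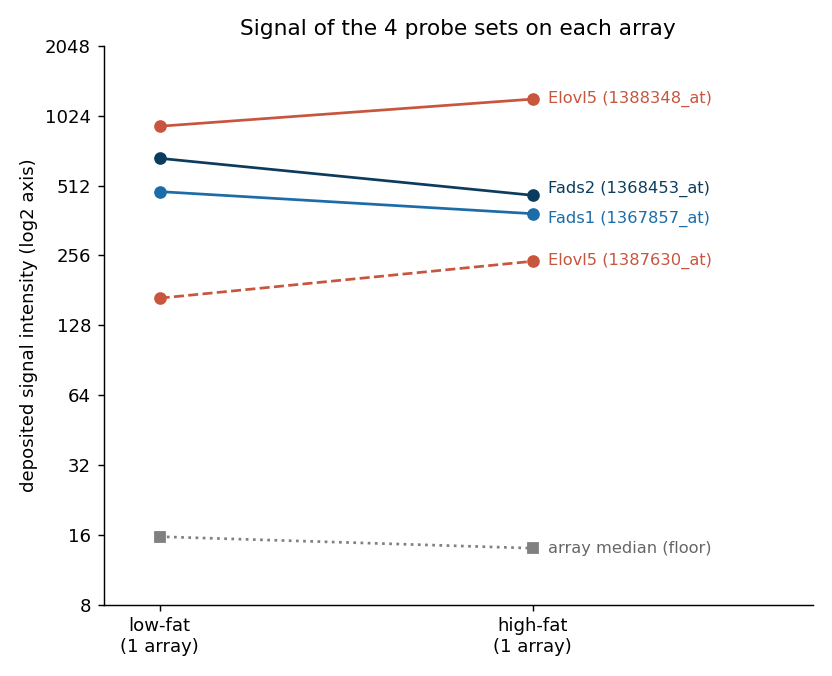
Deposited signal intensity (log2 axis) of the 4 probe sets on the low-fat and high-fat arrays, 1 array each, with lines joining the same probe set and grey squares for the array medians used as floors. Both Elovl5 probe sets have the higher signal on the high-fat array (1208.3 and 241.6), and Fads2 (465.1) and Fads1 (387.4) have the lower one there.

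The plot of ratio against signal sets these values in the spread of all measured probe sets. Both Elovl5 points lie above the robust SD lines for their signal, at 2.97 and 2.81 times the robust SD from 0. Fads2 lies below them at -2.42 times, and Fads1 is close to the lower line at -1.17 times. These multiples are counted from 0, while the lines are centred on the group median. That median was 0.049 in the brightest group and 0.004 in the group of 1387630_at.

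**Figure D2:**
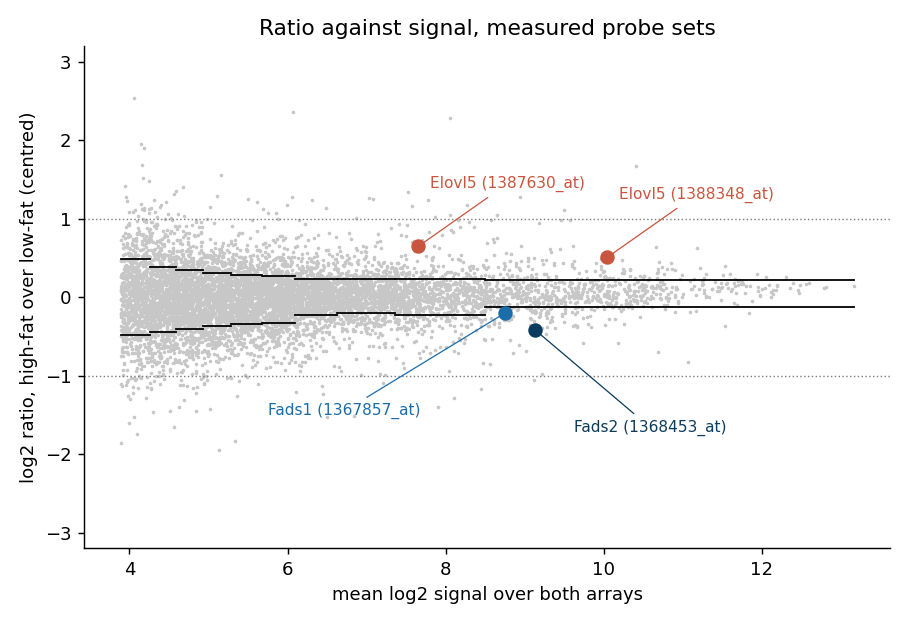
Centred log2 ratio (high-fat over low-fat) against mean log2 signal for the 7864 measured probe sets (grey), with the median plus and minus 1 robust SD in each of 10 equal groups of signal (black lines) and a 2-fold difference (dotted lines). The Elovl5 probe sets (0.51 and 0.65) lie above the black lines, Fads2 (-0.41) below them, and Fads1 (-0.20) just below the lower one.

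The gap between the elongase and the desaturases does not depend on centring, because a shift of the whole array cancels in it. The log2 ratio of the brighter Elovl5 probe set exceeded that of Fads2 by 0.92 and that of Fads1 by 0.71. With the second Elovl5 probe set the gaps were 1.06 and 0.85. The widest gap, between 1387630_at and Fads2, thus amounted to a 2.08-fold difference in ratio between 2 consecutive steps of the pathway on these arrays. With the brighter Elovl5 probe set this difference was 1.89-fold. When 50 was added to every signal, 1387630_at and Fads2 were closer together, at 0.485 and -0.423.

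The agreement of the Elovl5 probe sets can be read against other genes with 2 probe sets. Among 205 genes with exactly 2 measured probe sets, both brighter than the median measured probe set, 132 (64.4%) had the same sign on both. The absolute difference between the paired log2 ratios had a median of 0.16, and 45.9% of pairs were at least as close as the Elovl5 pair, which differed by 0.14. A limit of 0.5 was chosen after the values were seen. Of 17 genes whose brighter probe set was at or past it in either direction, 14 had the same sign on both. At or above it on both probe sets were 7 of the 205. These 7 were Agtr1a, Cald1, Crot, Elovl5, Id2, Obp3 and Srebf1. The place of Elovl5 among them depended on the scaling. Its brighter probe set was at 0.389 without centring and 0.449 with centring on the hybridization controls. With quantile normalization it was at 0.461, with loess correction at 0.445 and with scaling to the trimmed mean at 0.501. Srebf1 was at 0.66 on both, and Crot, a peroxisomal carnitine acyltransferase gene, at 1.05 and 1.26.

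**Figure D3:**
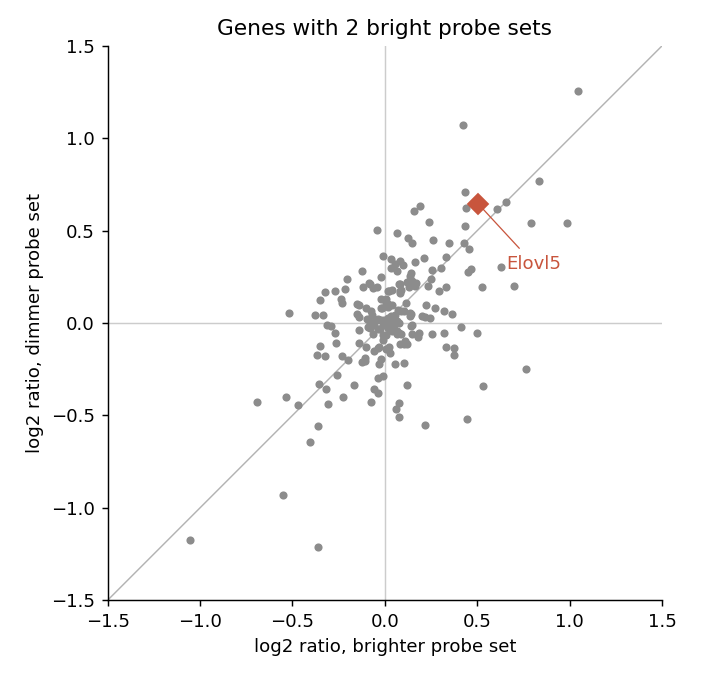
Log2 ratio of the dimmer against the brighter probe set for the 205 genes with exactly 2 measured probe sets brighter than the median one, with a line of equality. Elovl5 (red diamond, 0.51 and 0.65) lies near the line in the upper right quadrant.

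Promoter sequences of the 3 genes are shown because 2 members were lower and 1 higher, so that the letters upstream of each can be compared. The RefSeq promoter table of assembly GRCr8 matched all 3 genes by symbol. Each window below runs from 230 to 51 bases before the annotated gene start and is written 5′ to 3′ on the gene's strand. Capitals mark letters that match a searched motif on either strand.
Fads2 (GRCr8 chr1:216172084-216172263, - strand): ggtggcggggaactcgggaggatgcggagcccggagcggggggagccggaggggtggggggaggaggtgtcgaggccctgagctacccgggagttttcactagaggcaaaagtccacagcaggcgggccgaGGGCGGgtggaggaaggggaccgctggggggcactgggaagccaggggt
Fads1 (GRCr8 chr1:216252462-216252641, + strand): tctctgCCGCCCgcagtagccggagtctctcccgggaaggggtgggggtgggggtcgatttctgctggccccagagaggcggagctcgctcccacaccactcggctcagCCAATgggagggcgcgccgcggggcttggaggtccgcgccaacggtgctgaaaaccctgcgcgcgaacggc
Elovl5 (GRCr8 chr8:87670934-87671113, + strand): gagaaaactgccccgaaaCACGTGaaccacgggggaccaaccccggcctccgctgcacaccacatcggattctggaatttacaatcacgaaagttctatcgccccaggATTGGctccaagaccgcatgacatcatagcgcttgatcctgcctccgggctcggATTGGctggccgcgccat

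Letters of the CCAAT box, bound by NF-Y, a partner of SREBP, were present in Fads1 (121 bases before the start) and in Elovl5 at 2 places (122 and 68 bases before, both on the opposite strand, where they read ATTGG). No CCAAT was in the Fads2 window of 300 bases, which runs from 250 bases before to 50 after the start. Of 33469 rat promoters of that length, 37.5% held CCAAT. The GC box GGGCGG, a binding sequence of Sp1, was in Fads1 on the opposite strand (224 bases before) and in Fads2 (99 bases before), and in 33.1% of all promoters. The E-box CACGTG, which reads the same on both strands, was in Elovl5 alone among the 3 (212 bases before), and in 6.42% of all promoters. A sterol regulatory element with 1 free base was in none of the 3 windows and in 0.269% of promoters. The ideal direct repeat 1, the site type of PPAR-alpha, was in none of the 3 and in 0.0538%, and TATAAA was in none and in 14.2%. Both strands were searched, and none of the matches found in the 3 windows overlapped. The GC content of the 250 bases before the start was 73.2% in Fads1, 68.0% in Fads2 and 59.2% in Elovl5, against a median of 51.2% over all promoters. A match here is a run of letters, and no binding was measured.

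Fads1 and Fads2 are adjacent protein-coding genes on chromosome 1 of GRCr8, transcribed away from each other, with Fads3, another desaturase-like gene, on the far side of Fads2. The Fads3 probe set was below both floors, with 8.6 for low-fat and 4.4 for high-fat, so it gives no ratio. Of the 5 protein-coding genes on each side of the pair, Myrf, a membrane-bound transcription factor gene, was the one that was measured, at 26.5 and 16.2 (log2 ratio -0.59). Fen1, a flap endonuclease gene next to Fads1, was below both floors at 14.5 and 11.1. Elovl5 lies on chromosome 8, and its nearest protein-coding neighbour with a measured probe set, Gclc, the catalytic subunit of glutamate-cysteine ligase, had log2 ratios of -0.08 and -0.01. Fbxo9, Cilk1 and Gsta4, on the other side of Elovl5, were at -0.12, -0.11 and 0.08. None of the 4 measured neighbours of Elovl5 came near its ratio, but only 5.82% of all measured genes reached that of its brighter probe set. These neighbours were chosen by position after the data had been seen.

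The lists below, of genes that work with the 3 members, are described by counts and medians beside the 6012 measured genes, of which 3004 had a ratio above 0 and 3008 below, with quartiles of -0.20 and 0.18. Enzymes that complete an elongation round and the peroxisomal step had ratios on both sides of 0. Of 14 listed genes 8 had a probe set and 7 were measured, 3 higher and 4 lower. Their median was -0.03, with a range of -0.27 to 0.16. Hsd17b12, the ketoacyl-CoA reductase that follows every condensation by an elongase, had signals of 428.9 and 387.4, a log2 ratio of -0.03. Hacd3, a dehydratase of the same cycle, went from 280.5 to 214.2 (-0.27). Scp2, the sterol carrier protein and thiolase that serves peroxisomal chain shortening, was at 0.16 (second probe set, 0.33). Acot8, a peroxisomal thioesterase, and Abcd3, a peroxisomal fatty acyl-CoA importer, were at -0.15 and -0.12. None of the measured genes of this list thus had a ratio as high as that of the brighter Elovl5 probe set, which 5.82% of all measured genes reached.

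Other desaturases and elongases were mostly dim. Of 12 listed genes 7 had a probe set and 3 were measured, and Scd, the delta-9 desaturase that makes oleate, had the lowest ratio, from 2190.7 to 1244.1 (-0.70). Elovl1, an elongase of saturated very long chains, was at 80.0 and 81.6 (0.15), and Degs1, the ceramide desaturase, at 241.4 and 202.4 (-0.14). Elovl6, which extends palmitate to stearate, had a low-fat signal of 25.9 and a high-fat signal of 4.0, below the floor. It was therefore at least 1.71-fold lower, a bound against the floor. Elovl5 and Elovl6, elongases of different substrates, were thus on opposite sides, one higher and the other lower. All 3 probe sets of Scd2 were below both floors, and no probe set carried the name Elovl2, the elongase that works after Elovl5.

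Desaturases draw electrons from cytochrome b5 and its reductase. Cyb5a, the microsomal cytochrome b5, had 2122.8 and 1963.3 (0.004), a ratio whose sign depended on the scaling: it was above 0 under 1 of 6 scalings. Cyb5r3, its reductase, had 420.3 and 362.9 (-0.10), and Cyb5r4, a fused b5 reductase, 92.3 and 92.9 (0.13). Por, the P450 reductase, which can also reduce cytochrome b5, was the member apart from the rest, from 831.4 to 369.8 (-1.05; second probe set, -1.18). Over 5 measured of 7 listed genes the median was 0.004, with 3 higher, 2 lower, and Por past 2-fold. Without centring 1 was higher and 4 lower.

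Genes that activate polyunsaturated fatty acids or place them in phospholipid went both ways, 5 higher and 5 lower of 10 measured among 18 listed, with a median of 0.07 and no gene past 2-fold. Mboat7, an acyltransferase that places arachidonate in phosphatidylinositol, went from 63.2 to 43.3 (-0.43). Slc27a5, a liver acyl-CoA and bile acid-CoA synthetase, went from 913.8 to 1104.3 (0.39). Acsl5 went from 669.3 to 482.1 (-0.36), and Acsl4, an acyl-CoA synthetase that prefers arachidonate, from 327.6 to 354.9 (0.23).

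Among genes that release or oxygenate polyunsaturated fatty acids, 14 of 23 listed were measured, 10 higher and 4 lower. Their median was 0.09. Without centring these counts were 6 higher and 8 lower. Ltc4s, the leukotriene C4 synthase, went from 33.6 to 71.8 (1.21) and was the member past 2-fold. Ephx2, the soluble epoxide hydrolase that opens epoxides of arachidonate and linoleate, went from 128.8 to 225.7 (0.93). Ptges3, a prostaglandin E synthase and Hsp90 co-chaperone, was at 0.39, and Pla2g12a, a secreted phospholipase, at 0.26. Ptgs1, the constitutive cyclooxygenase that starts the prostaglandin route, was measured at 27.0 and 21.7 (-0.20). Probe sets of the inducible cyclooxygenase Ptgs2, of the lipoxygenases Alox5 and Alox15 and of the phospholipase Pla2g4a were below both floors.

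Of the transcription factors and sensors known to act on the 3 genes, all 18 listed had a probe set and 15 were measured, 9 higher and 6 lower. Their median was 0.07. Without centring 6 were higher and 9 lower. The largest ratios were higher ones. Srebf1 was at 192.3 and 279.4 (0.66), Insig1, which holds SREBP in the endoplasmic reticulum, at 106.4 and 153.3 (0.64), and Insig2, its relative, at 213.9 and 446.3 (1.18, past 2-fold). Mbtps2, the site-2 protease that releases SREBP, was below the low-fat floor at 12.5, against 20.1 with high-fat, which makes it at least 1.39-fold higher. Other genes of SREBP processing in the list were lower or near 0. Mbtps1, the site-1 protease, was at -0.24, and Srebf2, the SREBP-2 gene, at -0.23 on its measured probe set. Scap, the SREBP escort protein, was at 0.07, with a sign that depended on the scaling. Nfyc, an NF-Y subunit, and Mlx were at -0.36 and -0.17, and Mlxipl, the carbohydrate-responsive factor ChREBP, at 0.20.

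Nuclear receptors of the list were also on both sides. Nr1h3, the liver X receptor alpha, which drives Srebf1 transcription, went from 190.5 to 140.6 (-0.32). Rxra, the shared partner of liver X receptors and PPAR-alpha, went from 26.4 to 17.8 (-0.45). Hnf4a had 0.15 on its brighter probe set and -0.02 on the second, whose sign depended on the scaling. The Ppara probe set was below both floors, at 2.2 and 4.1, and gives no ratio.

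Other target genes of the same factors give the closest comparison. Of 13 listed SREBP-1c targets 8 were measured, 7 lower, 3 of them past 2-fold, and 1 higher. Their median was -0.82. Acaca, acetyl-CoA carboxylase, went from 202.1 to 65.4 (-1.51), Acly, ATP citrate lyase, from 404.9 to 140.9 (-1.41), and Me1, malic enzyme, from 66.1 to 25.4 (-1.26; second probe set, -0.66, with high-fat below the floor). Fasn, the fatty acid synthase, went from 102.6 to 49.4 (-0.94; second probe set, -1.43). The Fads2 and Fads1 ratios were on the same side as these but smaller in size than the list's median. Acss2 (-0.39) and Thrsp (-0.19, other probe sets -0.13 and -0.22) were of like size. Elovl5 was on the other side, as was Mid1ip1 (0.30), the higher gene of the list. Of 20 listed PPAR-alpha targets 15 were measured, 7 higher and 8 lower. Their median was -0.002. Pex11a, a peroxisome proliferation factor, was at -0.78 (second probe set, -0.12), Angptl4, a lipase inhibitor, at -0.67 and Cd36, a fatty acid transporter, at 0.77. Cyp4a8, a fatty acid hydroxylase, was below the low-fat floor at 10.4, against 23.3 with high-fat, which makes it at least 1.61-fold higher. This split is close to that of all measured genes.

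**Figure D4:**
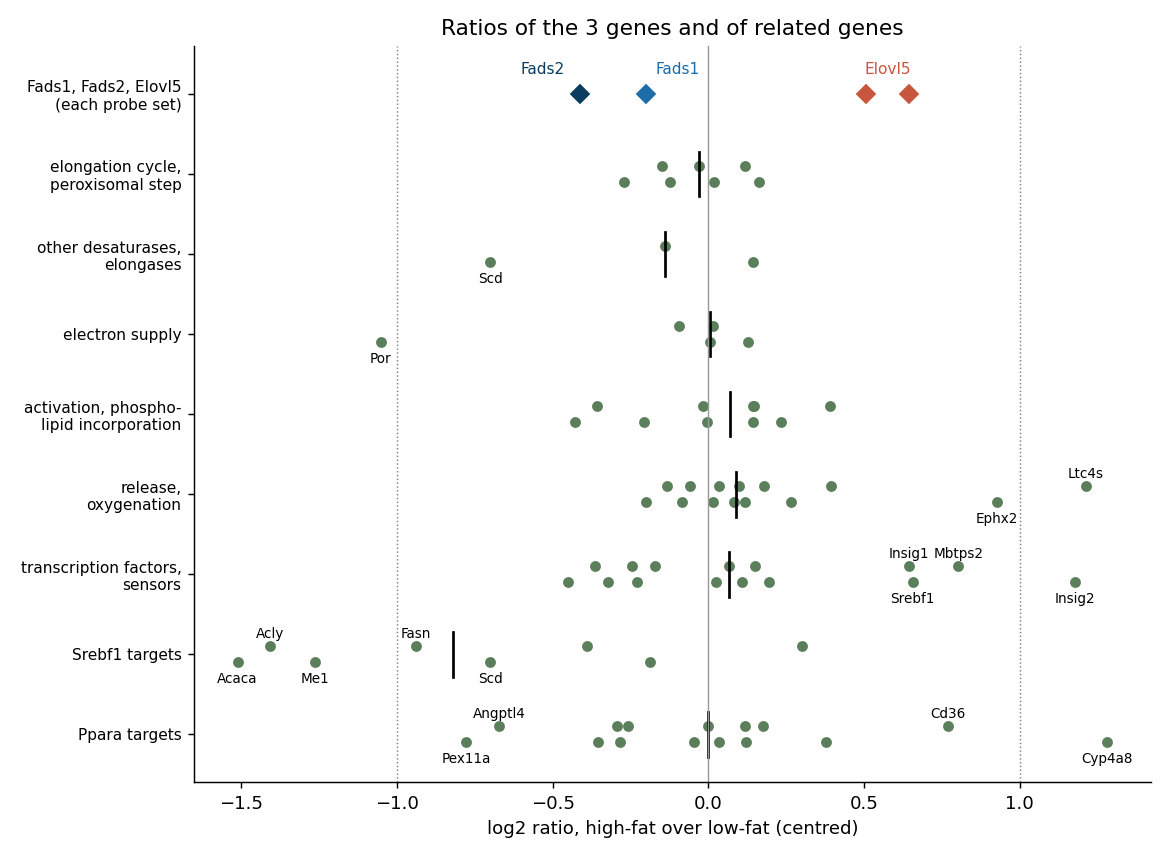
Log2 ratios (high-fat over low-fat, centred) of the 4 probe sets of Fads1, Fads2 and Elovl5 (diamonds) and of the measured genes of 8 related lists (circles, 1 per gene, brightest probe set), with list medians as black bars and 2-fold as dotted lines. Genes at least 0.6 from 0 are named, and SREBP-1c targets, labelled Srebf1 targets, have the lowest median (-0.82).

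The genes most like each member, taken as the nearest in mean log2 signal and log2 ratio over both arrays, were of varied kinds. G0s2, an inhibitor of lipolysis, was nearest to Elovl5, with 932.1 and 1213.1 (0.50), followed by Btg1 (0.49) and the acyl-CoA synthetase gene Slc27a5 (0.39). For Fads2 they were Acsl5 (-0.36), the glucose-6-phosphate transporter gene Slc37a4 (-0.39) and Slc22a18 (-0.31). For Fads1 they were Ndufa7 (-0.22), Pfn1 (-0.16) and Clec4f (-0.21), respectively a respiratory chain subunit, an actin-binding protein and a Kupffer cell lectin. With 2 arrays, such likeness describes a pair of numbers for each gene.

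The labelled tissue was borne out by hepatocyte markers, 8 of 9 of which were measured, with albumin the brightest probe set on both arrays. Their log2 ratios ran from 0.03 to 0.26, and several, albumin included, were below 0 under other scalings. Signals summed over every probe set of a marker list, including those below the floors and repeated probe sets of a gene, on the low-fat and high-fat arrays were 43160.3 and 43580.3 for hepatocytes, 1235.4 and 1074.3 for Kupffer cells, 304.6 and 259.4 for endothelium and 336.5 and 263.0 for stellate cells. These sums were taken without centring. Over the measured markers, the median centred log2 ratio was 0.13 for hepatocytes and -0.02 for Kupffer cells, the latter with 3 higher and 3 lower. It was -0.21 for endothelium and -0.28 for stellate cells. Of the listed genes, 6 of 8 Kupffer cell, 2 of 6 endothelial and 3 of 6 stellate cell markers were measured. Cholangiocyte and adipocyte markers had 1 measured gene each of 5, and lymphocyte markers none of 5. The part of these differences in the ratios of Fads1, Fads2 and Elovl5 was not tested.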

How the data were processed

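Each array gave 1 signal intensity per probe set on a linear scale, as deposited by the authors. How these were computed from the image is not given in the sources used here, and the scale was read from the values. The table held 15923 probe sets, and 15866 remained without controls. Of these, 12783 had 1 gene symbol in the platform annotation and 312 had several. After 4 probe sets with a 0 were removed, log2 of each signal was taken without a pseudocount. The floor was each array's median. The median over 7864 measured probe sets was subtracted from the log2 ratio, and genes took their brightest probe set. A low-fat or high-fat signal below its floor gave a bound against that floor.

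The members, gene lists and alternatives were chosen with earlier results of these data known. Named were all member probe sets, up to 4 measured genes per list by size of ratio, and a set of regulators and partners. Neighbouring genes, genes past 0.5 on 2 probe sets, further SREBP-1c targets and some dim or near-0 list genes were added after values were seen. Alternatives covered centring, normalization, floors, a pseudocount of 50 and the choice of probe sets. Precision is limited by the number of arrays. The procedure was tested on simulated data. The planted differences there were past 2-fold, so that test does not cover ratios as small as those of the members. Analyses used Python 3.11.15, numpy 2.4.6, pandas 2.3.3, scipy 1.17.1, statsmodels 0.14.6 and matplotlib 3.10.9.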

Additional observations from a re-analysis of the deposited data

How the results depend on the processing

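Every member probe set kept its sign, and moved by less than the robust SD for its signal, under each of the 10 alternatives run on it. Most of these moved all ratios by a common amount, namely those of centring, floor, scaling to the trimmed mean and omission of probe sets. Only quantile normalization, loess correction and the pseudocount could move the members relative to each other. The log2 ratio ranged from -0.32 to -0.17 for Fads1, from -0.53 to -0.39 for Fads2, from 0.39 to 0.53 for Elovl5 probe set 1388348_at and from 0.49 to 0.67 for 1387630_at. With the median over probe sets, Elovl5 was at 0.58. Counts near 0 depended on centring. Without it, the elongation cycle list had 1 gene higher, the electron supply list 1 higher and 4 lower, and the oxygenation list 6 higher and 8 lower. Centring on the hybridization controls and a pseudocount of 50 each also gave 1 higher and 4 lower for electron supply. The floor decided how many dim genes counted. For other desaturases and elongases the median was -0.67 with 5 lower at the 25th percentile, and -0.67 with 6 lower with no floor. The oxygenation list had 7 lower at the 25th percentile and 8 lower with no floor. The activation list had 3 lower at the 75th percentile and 9 higher with no floor, and the SREBP-1c target list 11 lower with no floor. Genes at least 2-fold higher and lower numbered 244 and 318 at the 25th percentile, 15 and 10 at the 75th, 836 and 996 with no floor, and 4 and 4 with a pseudocount of 50; without centring they numbered 33 and 78. Counting only the bases before the start, the shares of promoters were 34.0% for CCAAT, 30.5% for GGGCGG, 5.59% for CACGTG and 12.9% for TATAAA, and no match in the 3 members was lost. No paired analysis was possible because each diet has 1 array. For the same reason no replicate could be left out.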
